A study of Homo sapiens with 20 samples.

Results

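The unfolded protein response is the set of pathways by which a cell adjusts the folding capacity of its endoplasmic reticulum (ER), and 32 genes of it were followed in cultures with and without the m6A demethylase ALKBH5. The 32 were taken by gene symbol from the 60624 gene identifiers of the organoid tables and the 60623 of the progenitor tables, and each matched a single identifier in both. By role they comprised 17 ER chaperones and folding enzymes, 5 stress sensors and transcription factors, 4 genes of ER-associated degradation and 6 genes of the ATF4/CHOP branch. All cells came from the human embryonic stem cell line MEL1, in which a GFP reporter sits in an insulin allele, and were either WT or A5-KO, a CRISPR-Cpf1 knockout of *ALKBH5* cut in its first exon. hPSC-derived islet-like organoids (hILOs) gave 2 libraries for each genotype, from media that the labels describe up to day 22. Pancreatic progenitors (PPs) gave 2 libraries for each genotype after 0, 1, 2 and 3 h of actinomycin D, which blocks transcription, at 1 μg/ml. The labels do not name the knockout clone and do not say that replicates were separate cultures. The paper counts its RNA-seq decay curves of PPs as 2 biological replicates. Each p-value measures the spread between these libraries, which by the labels alone may be technical.

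Proteins that enter the ER are folded by chaperones such as HSPA5 (BiP) and by protein disulfide isomerases, and unfolded protein activates the sensors ERN1 (IRE1), EIF2AK3 (PERK) and ATF6. IRE1 splices the mRNA of XBP1 into the form that encodes an active transcription factor, cleaved ATF6 enters the nucleus, and PERK phosphorylates the initiation factor eIF2α, which favours translation of ATF4. ATF6 and XBP1 act mostly on chaperone and degradation genes, whereas ATF4 drives amino acid genes and DDIT3 (CHOP), a factor linked to cell death. Beta cells, which fold large amounts of proinsulin, depend on these pathways. The values here sum over each gene, so spliced and unspliced *XBP1* mRNA were not told apart.

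Some of the members held promoter elements, which their choice by name did not use. RefSeq promoters of GRCh38.p14, from 250 bases before to 50 bases after a start, were found for 31 members, all but *PDIA3*, and were searched on both strands. A gene was counted where any of its promoters matched. The ER stress response element is CCAAT and CCACG with any 9 bases between them, at which the factor NF-Y and ATF6 are known to bind. It stood in 25 of all 27305 genes searched (0.0916%) and in 8 of the 31 members. By role these were 7 of 16 chaperones and folding enzymes, 1 of 5 sensors and factors, 0 of 4 degradation genes and 0 of 6 ATF4/CHOP genes. The element was first defined in the promoters of ER chaperone genes, so its presence in them is no independent finding. It is shown here for genes whose levels are described below, on the gene's strand, with the letters fixed by the element in capitals. Where the element lies on the other strand, it reads CGTGG and then ATTGG.
*HSPA5* (chr9:125241386-125241414, minus strand): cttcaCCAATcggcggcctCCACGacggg
*HSP90B1* (chr12:103930211-103930239, plus strand): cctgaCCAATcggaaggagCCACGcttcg
*HSP90B1*, second site (chr12:103930316-103930344, plus strand): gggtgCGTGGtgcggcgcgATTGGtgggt
*CALR* (chr19:12938379-12938407, plus strand): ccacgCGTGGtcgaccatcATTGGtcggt
*PDIA6* (chr2:10812848-10812876, minus strand): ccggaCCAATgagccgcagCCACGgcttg
*ERO1B* (chr1:236282178-236282206, minus strand): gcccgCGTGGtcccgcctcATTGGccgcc
*XBP1* (chr22:28800598-28800626, minus strand): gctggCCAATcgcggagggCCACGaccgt
*CANX* and *CRELD2* held it as well.

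A shorter relative of this element, ATTGG and CCACG with any 1 base between them, was found in *HYOU1*, *SDF2L1* and *HERPUD1* and in 19 of all genes (0.0696%). A further element searched, the unfolded protein response core TGACGTG, was found in 1 of the 31 members, *HYOU1*, and in 654 of all genes (2.4%). The letters TGATGNAA occur in the C/EBP-ATF sites that ATF4 binds. They were found in *ASNS*, *CHAC1*, *HERPUD1* and *CREB3L2*, and so in 2 of the 6 ATF4/CHOP genes, and in 1217 of all genes (4.46%). The *HYOU1* site nearer to the start, 1 of 2, and the *CHAC1* site are given because these genes return in the progenitors.
*HYOU1* (chr11:119057265-119057293, minus strand): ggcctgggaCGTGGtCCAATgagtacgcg
*CHAC1* (chr15:40953253-40953278, plus strand): cccctgccgTTgCATCActcctgcca
A match is a run of letters and not a measured binding site.

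hILO values were deposited as TPM, whose library sums ran from 887320 to 924887, so their depth is unknown. PP values were CPM that gave back 30516384 to 35206514 reads per library, and replicate pairs differed by 4.28 to 37.8 times the variance that counting alone gives. *ALKBH5* was at 78.8 and 81.9 TPM in WT, against 4.16 and 3.42 TPM in A5-KO hILOs, and at 149 and 172 CPM against 19.1 and 18.8 CPM in PPs at 0 h. During actinomycin D its level in WT PPs was 133 and 125 CPM at 1 h, 107 and 83.4 CPM at 2 h and 48.3 and 33.7 CPM at 3 h. Over 644 genes whose mean at 1 h was under 50% of that at 0 h in both genotypes, the median level relative to 0 h in WT was 33.5% and 36.5% at 1 h, 24.2% in replicate 1 and 41.4% in replicate 2 at 2 h, and 41.0% and 49.6% at 3 h. In A5-KO it was 37.2% and 34.5%, then 20.9% and 20.5%, then 17.4% and 14.6%. So 3 WT libraries, 2 h replicate 2 and both of 3 h, held higher levels of short-lived mRNA than the WT libraries at 1 h. Hepatocyte marker sums were 1563 and 1710 CPM in the WT libraries of 3 h, between the 1161 to 1323 CPM of the other WT libraries and the 1974 to 2415 CPM of A5-KO. WT 2 h replicate 2, at 1294 CPM, was within the range of those other WT libraries. The A5-KO sums were also higher at 3 h, at 2415 and 2267 CPM, than at 0 h, at 1974 and 2009.7 CPM. The slopes are therefore given with and without these 3 libraries, whose part was examined after their values were seen. Whether their labels are right, and what sets them apart, was not tested.

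In hILOs the members spanned from 5.35 TPM for *ERN1* in A5-KO to 1198 TPM for *CALR* in WT, a unit that is divided by gene length and so lets genes be compared. The calcium-binding lectin chaperone *CALR* was the most abundant member, followed by *HSP90B1* (GRP94), the translocon subunit *SEC61B* and *HSPA5*. *CHAC1*, which degrades glutathione, was at 11.8 and 11.5 TPM in WT and had the lowest mean there. *XBP1* and *ATF4* were far above the other regulators, with *XBP1* at 426 and 425 TPM and *ATF4* at 365 and 368 TPM in WT, while *ERN1*, *ATF6* and *EIF2AK3* lay between 12.9 and 21.9 TPM. The 32 members summed to 6503 and 6464 TPM in WT, against 5573 and 5494 TPM in A5-KO, and the chaperones and folding enzymes to 5284 and 5249 TPM against 4401 and 4356 TPM.

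**Figure D1:**
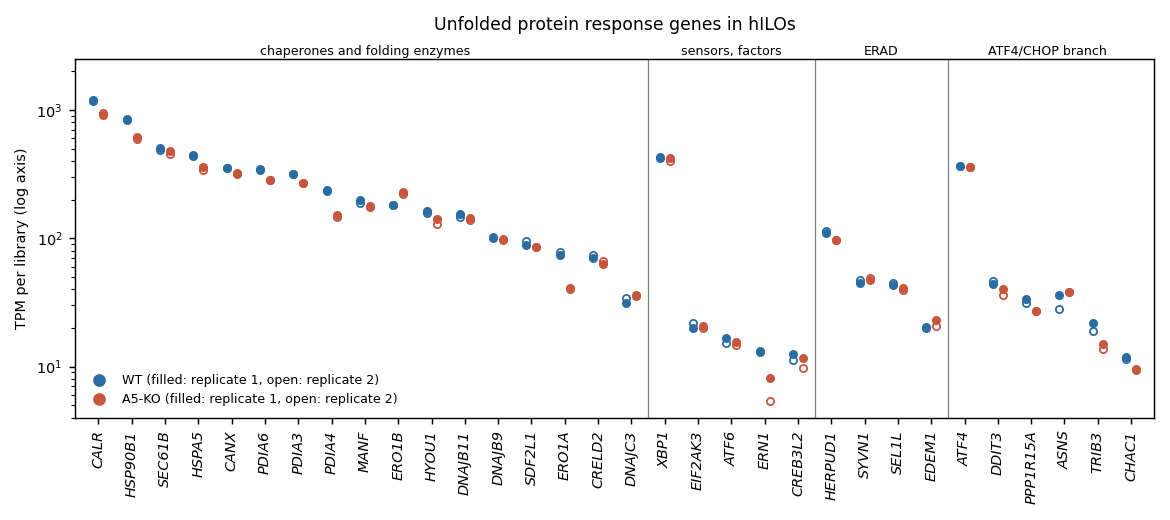
TPM of each member in each of the 4 hILO libraries, on a log axis, grouped by role and ordered by the WT mean within a role (WT blue, A5-KO red, filled for replicate 1 and open for replicate 2). *CALR* is highest at 1198 and 1170.1 TPM in WT, and *HSP90B1*, *PDIA4* and *ERO1A* are among the genes whose red points lie below their blue points.

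In hILOs the members that passed were all chaperones and folding enzymes. At a limma adjusted p below 0.05 across all 17300 genes tested, 7 of the 17 chaperones and folding enzymes fell, 1 rose and 9 did not pass, against 7.32% of all tested genes lower and 5.27% higher. These were 1266 and 912 genes, and 1067 and 1262 with median-of-ratios scaling, under which the 8 members kept their calls. With any 1 hILO library left out the counts over all genes were 101 to 230 lower and 96 to 127 higher. *CALR*, *HSP90B1*, *HSPA5*, *PDIA3*, *PDIA4*, *PDIA6* and *ERO1A* fell, and *ERO1B* rose. Of the 5 sensors and factors, the 4 degradation genes and the 6 ATF4/CHOP genes, 0 passed by limma. At an unadjusted p below 0.05, 16 of the 32 members were lower and 1 higher, as were 3238 and 2106 of the 17300 genes.

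*PDIA4* (ENSG00000155660, chromosome 7, 149003062 to 149028662, minus strand), a disulfide isomerase, was at 233 and 239 TPM in WT, against 152 and 146 TPM in A5-KO. The genotypes did not overlap, and the difference was -0.66 on the log2(TPM + 1) scale (standard error 0.04, limma adjusted p = 0.00574). *ERO1A* (ENSG00000197930, chromosome 14, 52639915 to 52695900, minus strand), the oxidase that returns disulfide isomerases to their oxidised form, was at 73.6 and 77.8 TPM in WT, against 41.3 and 40.1 TPM in A5-KO, a log2 difference of -0.88 (standard error 0.06, limma adjusted p = 0.0062). These 2 were the members past 1.5-fold as well as the adjusted p, against 4.09% of all tested genes lower and 2.7% higher by both limits. *ERO1B* (ENSG00000086619, chromosome 1, 236214681 to 236282019, minus strand), the paralog of *ERO1A* that is prominent in the pancreas, went the other way. It was at 182 and 181 TPM in WT, against 229.7 and 219.7 TPM in A5-KO, a log2 difference of 0.31 (standard error 0.04, limma adjusted p = 0.0215).

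*HSP90B1* (ENSG00000166598, chromosome 12, 103930107 to 103953931, plus strand) was at 836 and 854 TPM in WT, against 615 and 593 TPM in A5-KO, a log2 difference of -0.48 (standard error 0.03, limma adjusted p = 0.00655). *CALR* (ENSG00000179218, chromosome 19, 12938578 to 12944489, plus strand) was at 1198 and 1170.1 TPM against 910.3 and 953 TPM, a log2 difference of -0.35 (standard error 0.04, adjusted p = 0.0136 by limma). *HSPA5* (ENSG00000044574, chromosome 9, 125234853 to 125241382, minus strand), the chaperone that also holds the sensors inactive, was at 447 and 434 TPM against 360.3 and 343 TPM, a log2 difference of -0.33 (standard error 0.04, adjusted p = 0.0198 by limma). In all 3 the lower WT library stood above the higher A5-KO library. The disulfide isomerases *PDIA6*, at 343 and 343 TPM against 282 and 282 TPM, and *PDIA3*, at 315 and 315 TPM against 271 and 268 TPM, fell by 0.28 and 0.23 on the log2 scale (limma adjusted p = 0.015 and 0.0246). Of the exon bases of *PDIA6*, 25.2% overlap *ATP6V1C2* on the opposite strand, which was at 0.805 TPM on average, and the strand setting of the counting is not stated. *PDIA3* has a processed copy, *PDIA3P1*, at 28.1 to 54.9 TPM, with which it may share reads.

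The other 9 chaperones and folding enzymes did not pass. The membrane lectin chaperone *CANX* was at 353 and 354 TPM against 317 and 325 TPM (limma adjusted p = 0.0691). *HYOU1*, an HSP70-like chaperone that exchanges the nucleotide of HSPA5, was at 162 and 157 TPM against 141 and 128 TPM (limma adjusted p = 0.0727). *SEC61B* was at 501 and 484 TPM against 482 and 456 TPM, and *DNAJC3*, an HSPA5 cochaperone and the least abundant of the group, at 31.2 and 34 TPM against 36.1 and 35.4 TPM. The other 5 were *DNAJB9*, *DNAJB11*, *SDF2L1*, *MANF* and *CRELD2*, with log2 differences between -0.17 and -0.06. Over the 17 the median log2 difference was -0.17 and over all genes tested -0.06, and 15 of the 17 had both A5-KO libraries below both WT libraries, as did 37.1% of all genes, and the other 2 had both above, as did 24.3%.

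The calls changed when 1 hILO library was left out. Without WT replicate 2, 0 of the 7 lower members passed. *PDIA4* and *ERO1A* passed in each of the other 3 fits that left out 1 library, and *HSP90B1* passed without either A5-KO library, whereas *ERO1B*, *CALR*, *HSPA5*, *PDIA3* and *PDIA6* passed in 0 of the 4. All 8 kept their direction in each of these fits.

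Of the sensors and factors, *ERN1* had the widest gap between the genotypes in hILOs. *XBP1* was at 426 and 425 TPM against 421 and 402 TPM, *EIF2AK3* at 20.1 and 21.9 TPM against 20.7 and 20.1 TPM, and *ATF6* at 16.8 and 15.2 TPM against 15.5 and 14.8 TPM. The genotypes of *EIF2AK3* and *ATF6* overlapped. *ERN1* was at 12.9 and 13.1 TPM in WT, against 8.16 and 5.35 TPM in A5-KO, a log2 difference of -0.88 whose standard error of 0.21 left it outside the limit (limma adjusted p = 0.0691). *CREB3L2*, a membrane-bound factor of the ATF6 kind and the least abundant of the 5, was at 12.4 and 11.2 TPM against 11.7 and 9.81 TPM.

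Among the degradation genes *HERPUD1*, which recruits the ubiquitin ligase to unfolded protein, was nearest to the limit at 109.9 and 113 TPM against 96.1 and 96.3 TPM (log2 difference -0.21, limma adjusted p = 0.0503). The ligase *SYVN1* (HRD1) was at 45.1 and 47.1 TPM against 47.6 and 48.8 TPM, its partner *SEL1L* at 43.6 and 44.6 TPM against 41 and 39.6 TPM, and the mannosidase-like *EDEM1* at 19.9 and 20.4 TPM against 22.9 and 20.7 TPM. So 2 of the 4 were lower and 2 higher in both A5-KO libraries, where 37.1% and 24.3% of all genes were.

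In the ATF4/CHOP branch *ATF4* was at 365 and 368 TPM against 358 and 356 TPM. *DDIT3* was at 43.8 and 46.1 TPM against 39.9 and 36.2 TPM (limma adjusted p = 0.125), and *TRIB3*, a pseudokinase that CHOP and ATF4 induce, was at 22 and 19 TPM against 14.9 and 13.8 TPM (log2 difference -0.49, limma adjusted p = 0.0646). *CHAC1* and the eIF2α phosphatase subunit *PPP1R15A* (GADD34) were also lower in both A5-KO libraries. *ASNS*, asparagine synthetase, was at 36.1 and 28.1 TPM against 38.1 and 38.1 TPM. The median log2 difference of the 6 was -0.24, beside -0.06 over all genes, and was not tested against that of the chaperones. In both A5-KO libraries 5 of the 6 were lower and 1 higher, where 37.1% and 24.3% of all genes were. *DDIT3* shares 27.2% of its exon bases with *MARS1* on the opposite strand, and *ASNS* shares 49.3% with the lncRNA ENSG00000284707 on the same strand, so both values are uncertain.

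**Figure D2:**
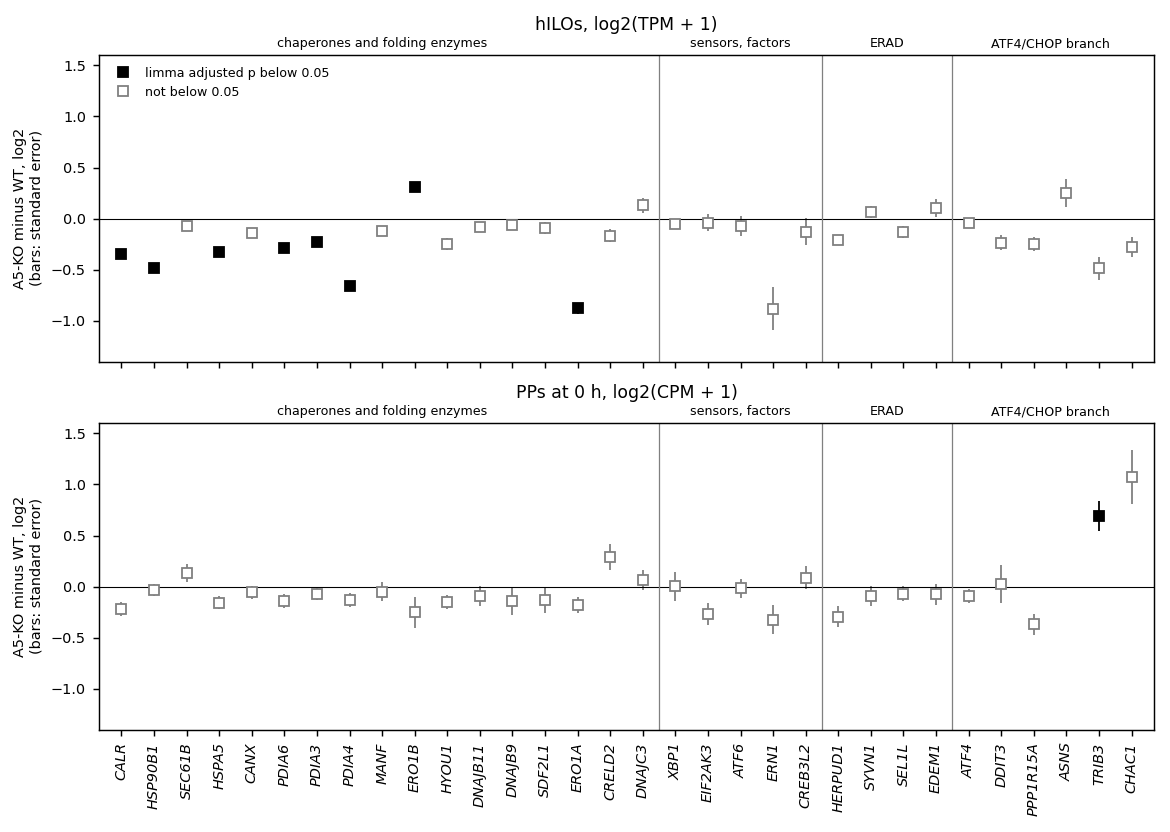
Difference between A5-KO and WT on the log2 scale for each member in hILOs (top) and in PPs at 0 h (bottom), with the standard error of the limma fit and filled squares at an adjusted p below 0.05. In hILOs 8 chaperones and folding enzymes are filled, from -0.88 for *ERO1A* to 0.31 for *ERO1B*, and in PPs *TRIB3* alone is filled, at 0.69.

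Cell type markers moved with the genotype in hILOs. Of 16 endocrine islet markers, 15 were tested, 7 fell and 4 rose, and the summed level of the list was 36930 and 39272 TPM in WT, against 31222 and 29945 TPM in A5-KO. *INS* was at 13033 and 12978 TPM against 7605 and 7606 TPM, while *SCG2*, a granin of endocrine granules, was at 1256 and 1279 TPM against 2382 and 2354 TPM, and *IAPP* was under 1.36 TPM in every library. Of 12 hepatocyte markers 6 rose and 4 fell, and their sum was 21384 and 21683 TPM in WT, against 36609 and 36331 TPM in A5-KO. *TTR* was the largest part of that sum, at 7527 and 7550 TPM in WT against 18674 and 18749 TPM in A5-KO. *FGA*, *FGB*, *FGG* and *AHSG* were lower in both A5-KO libraries. Of 10 acinar markers 5 were tested, with 0 passing by limma, the list summed to 57.7 to 75.1 TPM and *PNLIP* was at 0. Of 5 mesenchymal markers tested 1 fell and 3 rose, with sums of 268 and 261 TPM against 169 and 162 TPM. *VIM* made up most of these sums, at 253 and 254 TPM in WT against 121 and 121 TPM in A5-KO. Of 9 progenitor markers 0 passed by limma, with sums of 466 and 469 TPM against 437 and 441 TPM, and of 2 pluripotency markers 1 fell. Endocrine, hepatic and acinar cells all make secreted proteins. In these whole cultures fewer cells of a type and less RNA per cell cannot be told apart, and the part of the cell mixture in the chaperone differences was not tested.

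In PPs before actinomycin D *TRIB3* was the member past the limit in the fit without a replicate block. Of 31 members tested, 1 rose and 0 fell by limma. At an unadjusted p below 0.05, 8 were lower and 2 higher, as were 1153 and 1531 of the 13911 genes. Of all 13911 genes tested 2.16% rose and 2.05% fell, and 1.57% and 1.13% also passed 1.5-fold, as did *TRIB3* alone of the members. *TRIB3* (ENSG00000101255, chromosome 20, 362835 to 397559, plus strand) was at 6.75 and 6.29 CPM in WT, against 11.7 and 10.6 CPM in A5-KO. This was a log2(CPM + 1) difference of 0.69 (standard error 0.15, limma adjusted p = 0.0358). The call did not outlast the loss of any of the 4 libraries, where the largest adjusted p was 0.162 by limma, without WT replicate 2. With the replicate number as a block, 9 members passed as lower (*HSPA5*, *HERPUD1*, *PPP1R15A*, *PDIA6*, *HYOU1*, *PDIA4*, *EIF2AK3*, *CALR* and *ERO1A*) and 2 as higher (*TRIB3* and *CHAC1*). In that fit 1170 of all 13911 genes passed as lower and 1469 as higher, in place of 285 and 300 without the block. Whether the numbers pair the genotypes is not given in the sources used here.

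*CHAC1*, at 1.18 and 0.868 CPM against 4.57 and 2.23 CPM, differed by 1.07 on the log2(CPM + 1) scale (standard error 0.26, limma adjusted p = 0.0553), and *PPP1R15A*, at 66.3 and 59.5 CPM against 51.2 and 45.9 CPM, by -0.37 (standard error 0.10, limma adjusted p = 0.0828). On the reads recovered from CPM, the edgeR quasi-likelihood test passed *TRIB3* (adjusted p = 0.0313) and *CHAC1* (0.034) as higher and *PPP1R15A* (0.0264) as lower, and so did DESeq2. The log2 difference of *CHAC1* was 1.68 by edgeR and 1.69 by DESeq2, and 0.678 by limma without A5-KO replicate 1 (limma adjusted p = 0.202). The branch was mixed, with *TRIB3* and *CHAC1* higher and *PPP1R15A* lower in both A5-KO libraries. *ATF4* at 473 and 466 CPM against 426 and 457 CPM and *DDIT3* at 2.44 and 2.26 CPM against 2.57 and 2.26 CPM differed by -0.09 (standard error 0.07) and 0.02 (standard error 0.18) on the same scale. *ASNS*, at 0.66 to 1.12 CPM, was under the filter of a mean of 1 CPM and was not tested.

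Of the chaperones and folding enzymes, 0 of 17 passed by limma without the replicate block in PPs at 0 h. With the block *CALR*, *ERO1A*, *HSPA5*, *HYOU1*, *PDIA4* and *PDIA6* passed as lower, as did 1170 of 13911 genes. In both A5-KO libraries 10 of the 17 were lower and 2 higher, where 20.8% and 29.0% of all genes were. Their median log2 difference was -0.13, beside 0.03 over all genes. *CALR* was at 899.7 and 939 CPM against 750.4 and 830.0 CPM (log2 difference -0.22, limma adjusted p = 0.128), *HSPA5* at 1029 and 1051 CPM against 935 and 931 CPM, and *PDIA4* at 606 and 625 CPM against 534 and 589 CPM. All 3 were lower in A5-KO without overlap. *HSP90B1* was at 1059 and 1087 CPM against 1044 and 1053 CPM. *ERO1A* was at 144 and 148 CPM against 132 and 125 CPM, and *ERO1B*, which was higher in A5-KO hILOs, was at 9.7 and 8.89 CPM against 7.88 and 7.41 CPM.

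Of the regulators in PPs at 0 h, 0 passed by limma without the replicate block, while *EIF2AK3* passed as lower with it. *XBP1* was at 242 and 186 CPM in WT, against 241 and 187 CPM in A5-KO, a log2 difference of 0.00 with a standard error of 0.14. *ATF6* was at 45.8 and 45.2 CPM against 45.9 and 44.1 CPM. *EIF2AK3*, at 42.7 and 39.7 CPM against 36.2 and 32.2 CPM, and *ERN1*, at 13.1 and 14.3 CPM against 11.4 and 10.2 CPM, were lower in both A5-KO libraries. They did not pass without the block (limma adjusted p = 0.22 and 0.249). *HERPUD1* was the degradation gene with the widest gap, at 71.4 and 60.4 CPM against 53 and 53.7 CPM (limma adjusted p = 0.159 without the block). It passed as lower with the block.

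Of the marker lists in PPs at 0 h, 8 of 11 hepatocyte markers tested rose and 1 fell, with sums of 1161 and 1220 CPM in WT and 1974 and 2009.7 CPM in A5-KO. *AFP* was the largest part of these sums, at 563 and 551 CPM in WT against 1343 and 1294 CPM in A5-KO. Of 9 progenitor markers tested 1 fell, with sums of 1297 and 1024 CPM against 1075 and 969.9 CPM. Mesenchymal markers, of which 4 of 8 tested rose, summed to 543 to 549 CPM in WT and 656 to 665 CPM in A5-KO. Of 3 pluripotency markers tested 1 rose, with sums of 127 and 124 CPM against 250.3 and 236 CPM. *LIN28A* made up most of these sums, at 119 and 115 CPM in WT against 246 and 230 CPM in A5-KO. *SOX2*, at 2.76 and 2.91 CPM against 1.73 and 1.85 CPM, and *DPPA4*, at 4.97 and 5.89 CPM against 2.72 and 4.31 CPM, were lower. *POU5F1*, *NANOG* and *TDGF1* were at 0 to 0.146 CPM. Endocrine markers summed to 16.9 to 18.97 CPM at 0 h, with *INS*, *GCG* and *IAPP* at 0. The part of the cell mixture in the difference of *TRIB3* was not tested.

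Under actinomycin D in A5-KO, 4 of 4 ATF4/CHOP genes tested, 2 of 5 sensors and factors, 2 of 4 degradation genes and 1 of 17 chaperones and folding enzymes fell, and 5 chaperones and folding enzymes rose. In A5-KO PPs the slope of log2(CPM + 0.1) over 0 to 3 h passed for 9 members downward and 5 upward of 30 tested, where 37.1% and 7.44% of the 13620 genes did. Those that fell were *CHAC1*, *TRIB3*, *PPP1R15A*, *ATF4*, *XBP1*, *EIF2AK3*, *HERPUD1*, *SYVN1* and *DNAJB9*, and those that rose were *HYOU1*, *PDIA6*, *PDIA4*, *ERO1A* and *CALR*. The calls of *ATF4*, *HERPUD1*, *DNAJB9* and *CALR* were lost without either A5-KO library of 0 h, with limma adjusted p up to 0.141, 0.061, 0.101 and 0.178, and the other 10 held in every fit that left out 1 library and tested them. The median slope was -0.80 per hour for the ATF4/CHOP genes and 0.06 for the 17 chaperones and folding enzymes, beside -0.08 over all genes. Of the ATF4/CHOP genes, *CHAC1* reached the filter, a mean of 1 CPM over 16 libraries, only through A5-KO at 0 and 1 h. Its means there were 3.4 and 2.17 CPM, and in the other groups 0.153 to 1.02 CPM. Its slope, the count of 4 of 4 and the median therefore lean on a gene that started high in A5-KO. CPM gives each library the same total, so a stable mRNA can gain share as others are lost. Whether a rise in CPM after actinomycin D holds any new transcription was not tested. Scaling by the median of ratios, which moved the median slope of all genes from -0.08 to 0.02 (and quantile normalization to 0.05), gave 7 members lower and 12 higher, and over all genes 3636 lower and 3186 higher in place of 5054 and 1013.

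*XBP1* (ENSG00000100219, chromosome 22, 28794555 to 28800597, minus strand) was lost steadily in A5-KO. Its level was 241 and 187 CPM at 0 h, 101 and 103 CPM at 1 h, 49.4 and 45.5 CPM at 2 h and 26.2 and 24.1 CPM at 3 h, so that 12.2% and 11.2% of the 0 h mean was left. The slope was -1.03 per hour (standard error 0.14, limma adjusted p = 3.46e-05), and no library overlapped with those of the hour before. *TRIB3* went from 11.7 and 10.6 CPM to 7.28 and 6.14, 4.41 and 4.23, and 2.56 and 1.07 CPM (slope -0.86, standard error 0.14, limma adjusted p = 0.000108). *PPP1R15A* went from 51.2 and 45.9 CPM to 19.2 and 26.1, 10.7 and 11.3, and 11.2 and 10.8 CPM (slope -0.74, standard error 0.15, limma adjusted p = 0.000746), and most of its loss came in the first 2 h.

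*EIF2AK3* went from 36.2 and 32.2 CPM at 0 h to 13.6 and 12.8 CPM at 3 h (slope -0.44, limma adjusted p = 0.000921), while the other stress sensor *ATF6* was at 45.9 and 44.1 CPM at 0 h and 43.1 and 39.2 CPM at 3 h (slope -0.02, limma adjusted p = 0.762). *ERN1* was at 11.4 and 10.2 CPM and then 6.65 and 4.46 CPM (slope -0.27, limma adjusted p = 0.0565). *ATF4* went from 426 and 457 CPM to 321 and 301 CPM (slope -0.18, limma adjusted p = 0.0294). *CHAC1* went from 4.57 and 2.23 CPM to 0.0852 and 0.221 CPM. *DDIT3*, from 2.57 and 2.26 CPM to 0.114 and 0.221 CPM, was under the filter of a mean of 1 CPM over all 16 libraries. So was *ASNS*, which did not fall, at 1.02 and 0.879 CPM at 0 h and 1.19 and 1.26 CPM at 3 h.

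Of the chaperones in A5-KO, *HSPA5* did not pass and *CALR* and *HYOU1* rose. *HSPA5* was at 935 and 931 CPM at 0 h, then 909 and 898 CPM at 3 h (slope -0.01, limma adjusted p = 0.77). *CALR* was at 750.4 and 830.0 CPM and then 926 and 939.5 CPM (slope 0.09, limma adjusted p = 0.02). *HYOU1* was at 299.5 and 306 CPM and then 445 and 454 CPM (slope 0.20, standard error 0.03, limma adjusted p = 5.35e-05). *DNAJB9*, an HSPA5 cochaperone that represses IRE1, was the exception in this group, at 36.2 and 29.9 CPM and then 12.5 and 11.7 CPM (slope -0.44, limma adjusted p = 0.0143).

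**Figure D3:**
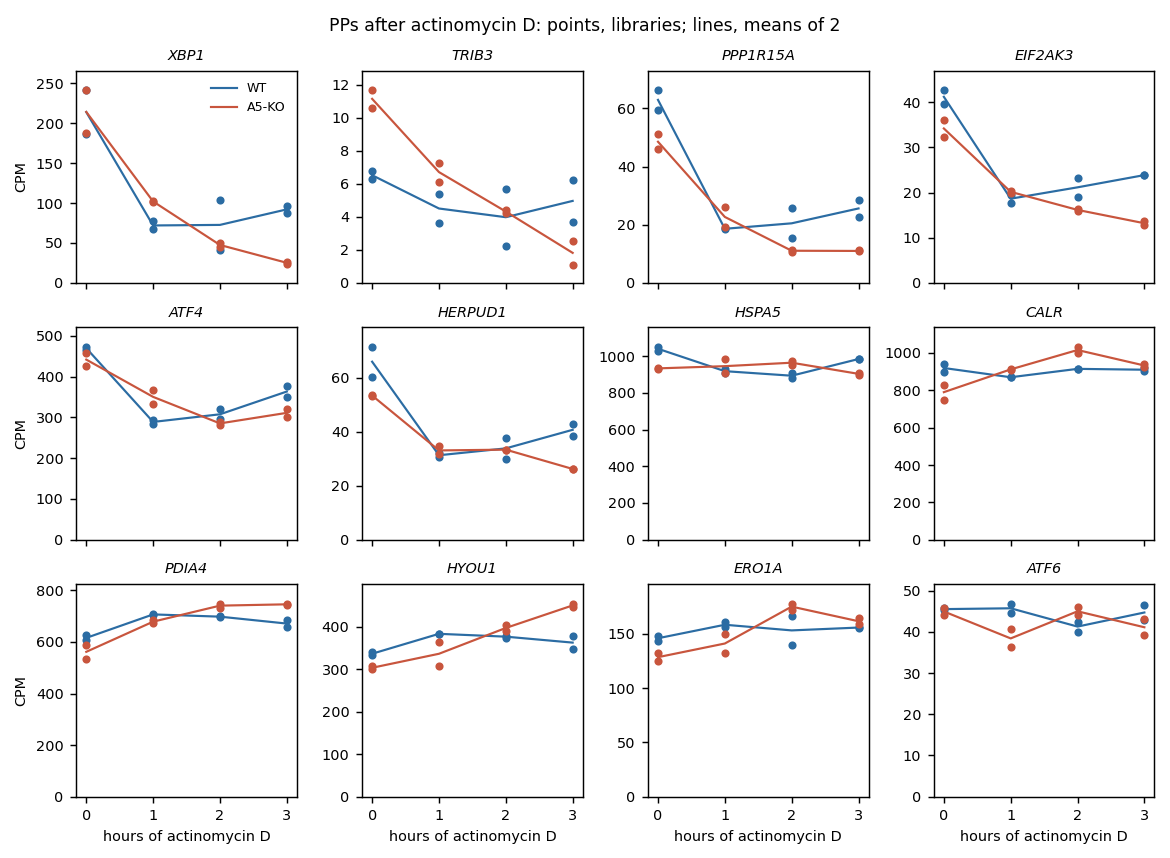
CPM of 12 members over 0 to 3 h of actinomycin D in PPs (points, libraries, and lines, means of 2, with WT in blue and A5-KO in red). *XBP1* in A5-KO ends at 26.2 and 24.1 CPM, whereas in WT it is at 66.9 and 76.9 CPM at 1 h but 87.8 and 96.4 CPM at 3 h, and *HSPA5* stays between 881 and 1051 CPM in every library.

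In WT PPs the same mRNAs were lower at 1 h and no lower at 3 h in the libraries as labelled. *XBP1* was at 242 and 186 CPM at 0 h, 66.9 and 76.9 CPM at 1 h, 41.1 and 104 CPM at 2 h and 87.8 and 96.4 CPM at 3 h. *PPP1R15A* was at 66.3 and 59.5, 18.7 and 18.4, 15.3 and 25.7, and 22.8 and 28.4 CPM, and *EIF2AK3* at 42.7 and 39.7, 19.6 and 17.7, 19.1 and 23.2, and 23.9 and 23.8 CPM. In each of the 3 genes the WT libraries of 3 h stood above those of 1 h. Over all 16 libraries 0 of 30 members passed by limma in WT, where 0.11% of all genes fell and 0.132% rose. At an unadjusted p below 0.05, 5 members were lower, as were 1554 of 13620 genes.

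Over the first hour alone, which the 3 libraries named above do not touch, members fell in both genotypes. From 0 to 1 h, 11 of 31 members fell and 0 rose in WT (25.5% and 2.13% of all genes) and 12 fell and 4 rose in A5-KO (30.2% and 8.43%). The log2 slope of *XBP1* was -1.56 in WT and -1.06 in A5-KO, that of *PPP1R15A* -1.75 and -1.11, and that of *DDIT3*, which passes the filter over these times, -2.30 and -1.96, each past the limma limit. The difference of these slopes between the genotypes passed for 0 of 31 members by limma (0.37% of all genes higher and 0.0218% lower). At an unadjusted p below 0.05, 7 members went toward a slower fall or a larger gain in A5-KO and 1 toward the opposite, as did 907 and 569 of 13767 genes.

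With all 16 libraries the slopes differed between the genotypes for 1 of 30 members, *HYOU1* (0.17 per hour, standard error 0.04, limma adjusted p = 0.0447), where 0.0661% of all genes passed in this direction and 2.61% in the other. The wider gaps of *XBP1* (-0.66, limma adjusted p = 0.0734), *TRIB3* (-0.70, 0.0583) and *CHAC1* (-1.16, 0.08) did not pass. The *HYOU1* call was lost with the replicate block within genotype (limma adjusted p = 0.0704). Over all genes the 355 lower differences became 0 to 1442 with 1 library left out. The windows that hold the 3 h libraries gave other counts. Over 0 and 3 h alone, 7 members fell and 0 rose in WT (16% and 1.62% of all genes), 11 fell and 7 rose in A5-KO (41.8% and 11.5%), and the difference passed for 5 lower and 2 higher (19.9% and 2.11%). Over 1, 2 and 3 h, 0 passed in WT by limma (0.052% of all genes lower and 0.0817% higher). At an unadjusted p below 0.05, 0 members were lower and 4 higher there, as were 82 and 518 of 13462 genes. In A5-KO 4 fell and 1 rose (18.5% and 2.2%), and the difference passed for 7 lower and 1 higher (11.8% and 0.869%). Leaving out the 3 WT libraries set WT slopes over 0 to 2 h beside A5-KO slopes that still ran over 0 to 3 h. The sizes of the slopes are thus over unlike times in that fit, which changed the WT side. There 10 members then fell, namely *CHAC1*, *XBP1*, *PPP1R15A*, *DNAJB9*, *TRIB3*, *HERPUD1*, *EIF2AK3*, *ERN1*, *ATF4* and *SYVN1*, where 24.8% of all genes did and 2.24% rose, and in A5-KO 10 fell and 6 rose (40.0% and 9.35%). *XBP1* had a slope of -1.24 per hour in WT (standard error 0.10, limma adjusted p = 1.21e-05) beside -1.03 in A5-KO. The WT slopes of *PPP1R15A* and *EIF2AK3* were then -1.12 and -0.64 (limma adjusted p = 0.000698 and 0.00213), beside -0.74 and -0.44 in A5-KO. The median slope of the ATF4/CHOP genes was -0.92 in WT and -0.80 in A5-KO. The difference between the genotypes then passed for 0 of 30 members and for 0 of 13633 genes by limma (*HYOU1* 0.09, *XBP1* 0.20, *TRIB3* -0.14 and *CHAC1* 0.03, limma adjusted p = 0.9995 for each). At an unadjusted p below 0.05, 0 members were lower and 1 higher, as were 200 and 283 genes. The differences of decay given above were thus not found without WT 2 h replicate 2 and the WT libraries of 3 h. These libraries were picked for their high short-lived mRNA, and without them WT has 5 libraries and no 3 h point. That fit therefore cannot show what the differences rest on.

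**Figure D4:**
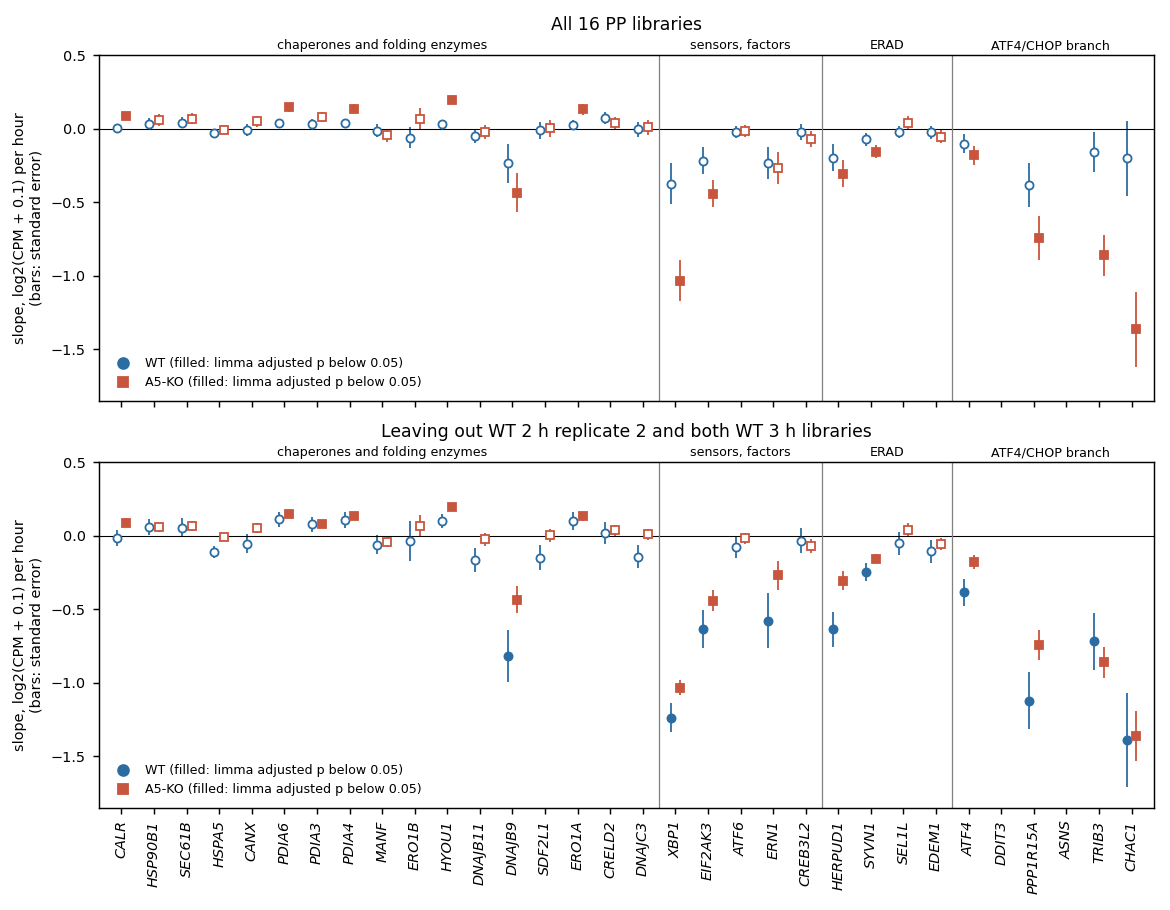
Slope of log2(CPM + 0.1) per hour of actinomycin D for the members in WT (blue circles) and A5-KO (red squares), with standard errors and filled symbols at a limma adjusted p below 0.05, over all 16 PP libraries (top) and without 3 WT libraries (bottom). At the top 0 WT symbols are filled, at the bottom 10 are, and *DDIT3* and *ASNS* are under the filter in both. At the bottom the WT slopes end at 2 h and the A5-KO slopes at 3 h.

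The other genes of the pathway, 103 in 5 lists, were read in the same fits. In hILOs 98 were tested, 8 fell and 10 rose, where 7.32% and 5.27% of all genes did. Their median log2 difference was -0.03 beside -0.06 over all genes. Among the 21 other folding enzymes tested, 2 fell and 3 rose. The sulfhydryl oxidase *QSOX1* was at 50.8 and 43.8 TPM against 25.3 and 22.3 TPM (log2 difference -0.96, limma adjusted p = 0.0174) and the glucosidase subunit *GANAB* fell by 0.33, while *FKBP11*, a prolyl isomerase, *DNAJC1* and *ERP29* rose by 0.59, 0.54 and 0.22. Of the 17 other degradation genes tested 0 fell and 2 rose, among them *AUP1* by 0.30. Of 16 genes of translocation and signal peptide processing, 2 fell, *SPCS3* and *SEC61G*, and 1 rose, the signal peptidase subunit *SEC11C*, at 511 and 475 TPM against 745 and 726 TPM. Of 15 other sensors, proteases and factors 0 fell and 2 rose, *WFS1*, the ER protein lost in Wolfram syndrome, by 0.43 and *TMBIM6* by 0.41. Over the 5 lists 80 of the 98 did not pass, and no test compared them with the members.

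The 32 other ATF4 and integrated stress response genes were read at both stages, which were not tested against each other. In hILOs 29 were tested, 4 fell and 2 rose (7.32% and 5.27% of all genes), with a median log2 difference of -0.21 beside -0.06 over all genes. *DDIT4*, an inhibitor of mTORC1, was at 105 and 92.3 TPM against 22.9 and 24.1 TPM (log2 difference -2.02, limma adjusted p = 0.00284), and the leucine transporter *SLC7A5* at 53.9 and 55.4 TPM against 28.9 and 27.4 TPM. In PPs at 0 h 30 were tested, 1 fell and 5 rose (2.05% and 2.16% of all genes), with a median of 0.20 beside 0.03 over all genes. The cystine transporter *SLC7A11* was at 9.9 and 9.23 CPM against 24.9 and 20.3 CPM (log2 difference 1.15, limma adjusted p = 0.00226), *PSAT1* of serine synthesis at 105 and 98.1 CPM against 187 and 175 CPM, and *SLC7A5* at 64.6 and 64.3 CPM against 106 and 108 CPM, while the cytokine *GDF15* fell by 0.43. Of the other 4 lists 0 of 68 genes passed at 0 h by limma. Under actinomycin D in A5-KO, 13 of the 30 fell and 1 rose, where 37.1% and 7.44% of all genes did, led by *PPP1R15B*, *SESN2* and *CEBPB* with slopes of -1.04, -0.99 and -0.82. Of the 20 other folding enzymes tested 12 rose and 2 fell.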

How the data were processed

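RNA was sequenced from 4 hILO and 16 PP libraries. The authors trimmed reads with fastp, aligned them to GRCh38 (hg38) with HISAT2 2.1.0 and, for hILOs, deposited TPM per gene from StringTie. For PPs they deposited CPM after removing ERCC spike-ins, and no scaling to spike-ins was applied here. The PP counter, the annotation and the strand setting are not given in the sources used here. CPM were whole multiples of 1 read (tolerance 0.02) for at least 99.9984% of values, so reads were recovered.

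Genotypes were compared with limma 3.58.1 (R 4.3.3, trended eBayes) on log2(TPM + 1) or log2(CPM + 1), and decay as slopes of log2(CPM + 0.1) on time per genotype, for genes whose mean reached 1. Adjustment was Benjamini-Hochberg over all genes, and a member passed at 0.05. edgeR 4.0.16 and DESeq2 1.42.0 on recovered reads, scalings, filters, the replicate block and left-out libraries were alternatives. With 2 against 2 libraries an exact permutation p cannot go below 0.33. Replicate numbers were not taken as pairs of the genotypes, since the study ties a biological replicate to a batch of cells shared by its treatments but gives no batch shared by both lines. The code was tested on simulated data. Members and lists were chosen with earlier results of these data known. Named were members called, the extremes of each role, the main regulators and at most 3 genes per list and direction. Positions and overlaps come from GENCODE on GRCh38.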

Additional observations from a re-analysis of the deposited data

Results flagged for a closer look

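The decay slope of *HYOU1* differed between the genotypes by the limma test of the difference itself, by 0.17 per hour (adjusted p = 0.0447), and in the 16 fits that left out 1 library the call was lost in 14. Without the 3 WT libraries the difference was 0.09 (limma adjusted p = 0.9995).

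The 2 stages leaned in opposite directions for 6 members, with every A5-KO library on one side of every WT library in hILOs and on the other side in PPs at 0 h, as did 15% of the 12729 genes tested at both stages, and this difference between the stages was not tested. The 6 are 19.4% of the 31 members tested at both. The log2 differences in hILOs and in PPs were -0.49 and 0.69 for *TRIB3*, -0.28 and 1.07 for *CHAC1*, -0.17 and 0.29 for *CRELD2*, -0.0696 and 0.13 for *SEC61B*, 0.31 and -0.25 for *ERO1B* and 0.0626 and -0.0911 for *SYVN1*. Of these values *ERO1B* in hILOs and *TRIB3* in PPs passed their limma test. Among the other named genes of the pathway, the same held for *SLC7A5* (-0.93 and 0.72), *PSAT1* (-0.21 and 0.83), *PHGDH* (-0.29 and 0.23) and *TMBIM6* (0.41 and -0.0794). hILO values are TPM and PP values CPM.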

How the results depend on the processing

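Of the values of members that passed, recomputed under each alternative, 428 kept their direction and their side of the limit, 87 kept their direction without passing and 2 reversed. These were the A5-KO slope of *CALR* under quantile normalization (-0.0145) and the slope difference of *HYOU1* over 0 and 1 h (-0.0444). In hILOs 7 members lower and 1 higher became 3 and 0 with no filter, and 0 to 3 and 0 to 0 with 1 library left out. Median-of-ratios scaling gave 1067 genes lower and 1262 higher there, in place of 1266 and 912. In PPs at 0 h, 0 members lower and 1 higher became 1 and 2 with median-of-ratios scaling, quantile normalization, edgeR or DESeq2, 0 and 2 with robust eBayes, 0 and 0 with no filter, with a mean of at least 10 or with all 16 PP libraries, and 0 to 1 and 0 to 1 with 1 library left out. With a mean of at least 10, 27 members were tested, and *TRIB3* was under that filter. For WT slopes, 0 members lower became 7 over 0 and 3 h, 11 over 0 and 1 h and 10 without the 3 WT libraries. With 1 library left out it stayed at 0, as did the count higher. For A5-KO slopes, 9 lower became 4 over 1, 2 and 3 h and 5 to 11 with 1 library left out (5 without A5-KO 0 h replicate 1). The 5 higher became 12 with median-of-ratios scaling or edgeR, 10 with quantile normalization, 1 over 1, 2 and 3 h and 4 to 6 with 1 library left out. For the slope difference, 0 lower became 5 over 0 and 3 h, 7 over 1, 2 and 3 h, 3 without the 2 h libraries and 0 to 3 with 1 library left out (3 without WT 0 h replicate 1 or WT 2 h replicate 1). The 1 higher became 2 over 0 and 3 h, 0 to 1 with 1 library left out, and 0 with a pseudocount of 1, no filter, either scaling, 0 and 1 h or without the 3 WT libraries. Leaving out the 2 h libraries or the 3 WT libraries was chosen after seeing the data. Over all genes, counts lower and higher fell from 1266 and 912 to 246 and 203 with no filter in hILOs (101 to 230 and 96 to 127 with 1 library left out), and from 285 and 300 to 90 and 94 in PPs at 0 h (DESeq2 gave 470 and 371). For the slope difference, 355 and 9 became 165 and 8 at a pseudocount of 1, 0 and 0 unfiltered, 105 and 5 (median of ratios), 23 and 2 (quantile) and 0 and 0 without the 3 WT libraries. The causes were not tested.

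Replicate numbers are shared by the genotypes, but with 2 pairs the deviations of same-numbered libraries correlated at 0.04 in hILOs and at 0.29, -0.02, -0.11 and 0.0002 at 0, 1, 2 and 3 h in PPs. Within a genotype, deviations at 0 h correlated with those at 1, 2 and 3 h at -0.14, -0.39 and -0.09 in WT and at 0.27, 0.0070 and 0.24 in A5-KO. The 644 short-lived genes had 0 h medians of 110% and 89.7% in WT and 111% and 89.0% in A5-KO, for replicates 1 and 2. The fits without the block had been fixed beforehand as the main ones. Whether the PP libraries of 0 h are paired was not tested. With the replicate block, 6 members were lower and 1 higher in hILOs, 9 and 2 in PPs at 0 h, 9 and 5 for A5-KO slopes, 0 for WT slopes and 0 for the slope difference. Over all genes the block gave 616 lower and 440 higher in hILOs, 1170 and 1469 in PPs at 0 h and 0 and 0 for the slope difference. The depth behind TPM is unknown, and low members of PPs such as *CHAC1*, *DDIT3* and *ASNS* rest on few reads.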
